A study of Mus musculus with 8 samples.

Results

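The Wnt pathway genes described here are 60 genes of the ligand, receptor, agonist, inhibitor, intracellular and feedback target classes, out of 36799 genes and other targets on the arrays. They were listed by gene symbol and by role in the pathway. RNA was compared between newborn (P0, C57BL/6) Eed cKO mice and controls, 4 samples each, from the epidermis of the back, with each sample hybridised on a 2-colour Agilent array beside Universal Mouse Reference RNA. In the Eed cKO animals K14-Cre, a driver active in keratinocytes of the epidermis and its appendages, deleted a floxed Eed gene, which encodes a subunit of Polycomb repressive complex 2 (PRC2). The labels give the controls as CTL at the same age and strain and name no further allele. The samples of both genotypes were whole epidermal cell suspensions released with dispase and trypsin, so keratinocytes of the interfollicular epidermis and of the follicles were measured together. In such bulk RNA, fewer cells of a type and less RNA per cell cannot be told apart.

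Wnt ligands are secreted lipid-modified proteins that bind Frizzled receptors and the Lrp5 or Lrp6 coreceptor, which stops the Axin, Apc and Gsk3b complex from degrading β-catenin. β-catenin then enters the nucleus and acts with Tcf and Lef factors on target genes, among them Axin2 and Nkd1, whose products restrain the pathway. In embryonic skin, epidermal Wnt signalling is needed for the hair placode, the thickening from which a hair follicle grows.

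Values are log2 ratios of sample over reference after normexp background correction and loess normalisation. A value of 1 is nominally a level 2-fold above the reference RNA. The offset of the background correction draws ratios of dim probes toward 0, so their values lie too near the reference. Eed, the targeted gene, was lower on all Eed cKO arrays, at -2.04 to -1.66 against -0.46 to -0.18 on the control arrays, with a log2 fold change of -1.46 (limma). Between 51.5% and 65.5% of spots per array rose well above background for the sample RNA, and none was saturated. None of the 8 keratinocyte markers tested differed past an adjusted p of 0.05 (limma), and their mean log2 ratio was 3.08 to 3.62 on the Eed cKO arrays and 3.04 to 3.63 on the control arrays. All arrays were on 1 slide with 1 genotype in each row of the slide, so slide row and genotype cannot be told apart. The mean log2 ratio of 4 Y-linked genes was 1.19 in control replicate 2 and 1.02 in control replicate 3. On the other 6 arrays it was -1.51 to -1.31, so this mean was high in 2 control samples and in no Eed cKO sample. None of the 4 genes was bright enough to be tested. Ddx3y, Eif2s3y and Uty were well above background on 2 control arrays and no Eed cKO array. Kdm5d was so on 1 Eed cKO array and no control array.

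Of the 60 Wnt pathway genes, 51 stood well above background on 3 or all 4 arrays of at least 1 genotype and were tested. Of these, 3 passed this filter through 1 genotype alone, Wnt3a and Fzd8 through the controls and Sfrp5 through the Eed cKO arrays, which favours a difference in that direction. In Eed cKO epidermis 10 of the 51 were higher and 10 were lower at an adjusted p below 0.05 (limma, genotype plus dye, adjusted over all 23139 genes and targets tested), which is 39.2% of those tested. Over all genes and targets, 21.7% passed the same test, 11.8% higher and 9.93% lower. Among genes with a symbol, which all members have, 25.8% passed. The members were chosen with earlier results of these data known, so the comparison of these shares is not an independent test. None of the members changed 2-fold or more, against 1.2% of all tested. The members' log2 fold changes ran from -0.84 to 0.90 with a median of 0.03, and the median over all tested was 0.02. The 4 Eed cKO arrays lay entirely above the 4 control arrays for 8 members and entirely below for 7, while 17.2% of all tested had no overlap in either direction.

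**Figure D1:**
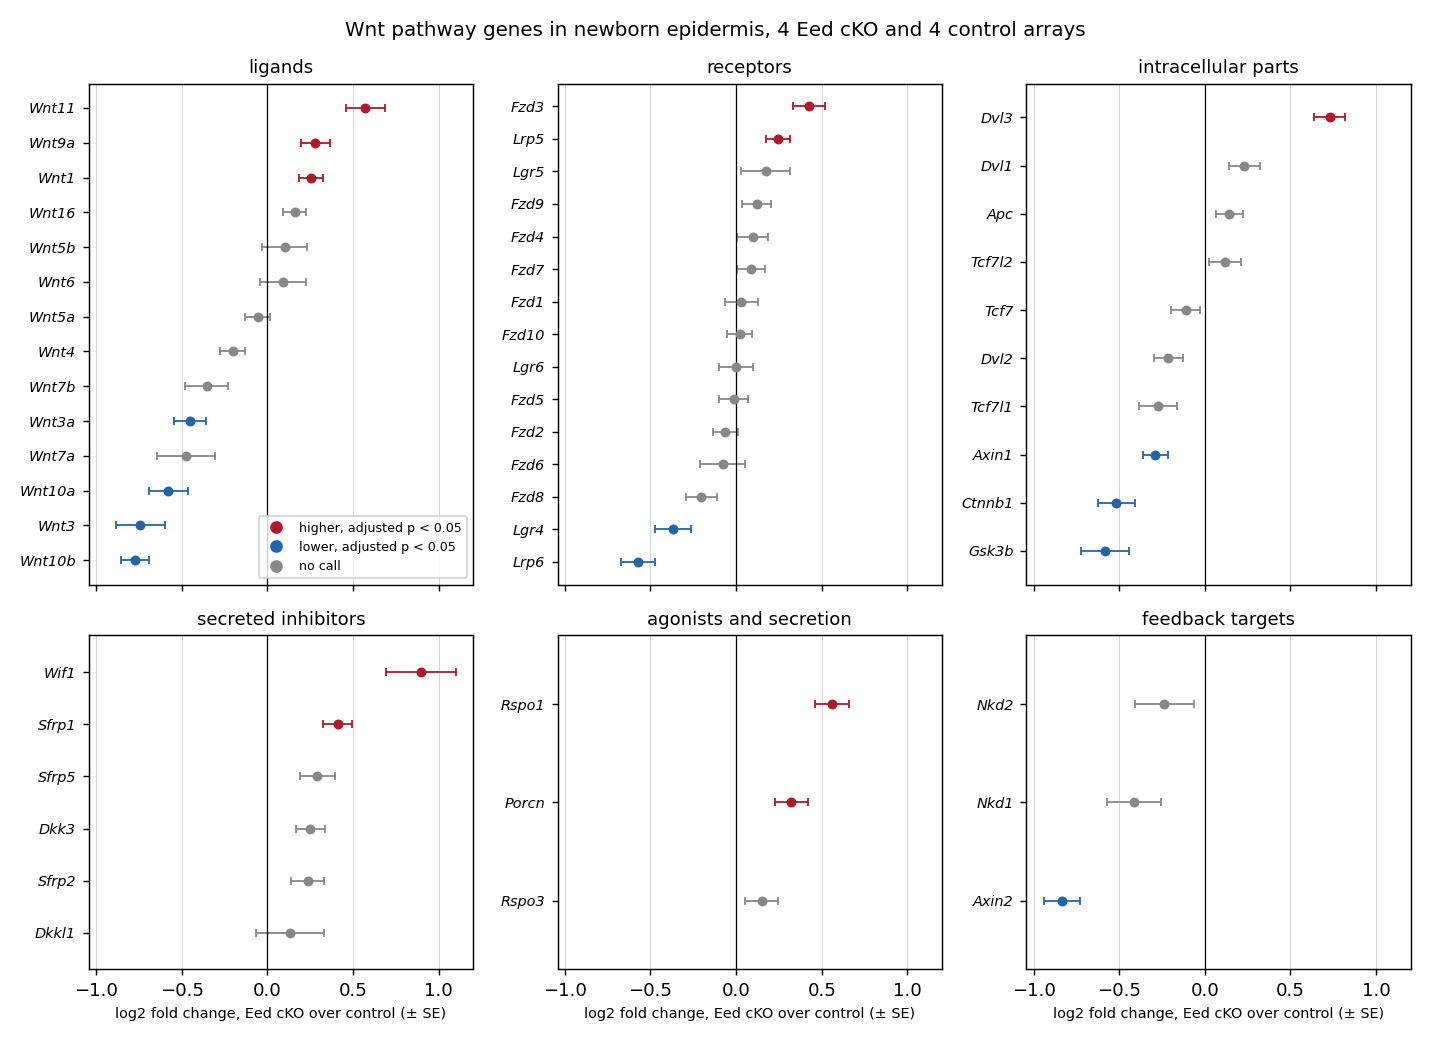
Log2 fold change of Eed cKO over control with its standard error for the 51 Wnt pathway genes tested, by class; red and blue points passed an adjusted p of 0.05 and grey points did not. Calls in both directions lie among ligands, receptors and intracellular parts, while the 6 secreted inhibitors tested, Sfrp5 among them, lie above 0 and the 3 feedback targets below 0.

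RefSeq promoter windows of GRCm38.p6, from 250 bases before to 50 bases after the gene start, were matched for 42 of the 60 members. The windows were read on both strands for CTTTGAA, likewise for CTTTGAT, further for CTTTGTA and finally for CTTTGTT, the letters bound by Tcf and Lef factors; none of these motifs can overlap another on the same strand. At least 1 match lay in a window of 6 of the 42 members (14.3%), and of 18.9% of all 27025 genes with a window. The CpG observed over expected ratio had a median of 0.79 over the members and 0.41 over all genes. It exceeded 0.6 for 85.7% of the members against 38.3% of all genes. The set of all genes was not limited to those tested on the arrays, and the difference was not tested. The windows of 5 genes are shown because their genes carry the results that follow, with the motif letters in capitals: Wnt10b and Wnt1, neighbours on chromosome 15 that changed in opposite directions, Wnt3 and Wnt11, the lowered and the raised member with a match, and Axin2, the member with the largest fall.
Wnt10b (chr15:98778101-98778400, minus strand): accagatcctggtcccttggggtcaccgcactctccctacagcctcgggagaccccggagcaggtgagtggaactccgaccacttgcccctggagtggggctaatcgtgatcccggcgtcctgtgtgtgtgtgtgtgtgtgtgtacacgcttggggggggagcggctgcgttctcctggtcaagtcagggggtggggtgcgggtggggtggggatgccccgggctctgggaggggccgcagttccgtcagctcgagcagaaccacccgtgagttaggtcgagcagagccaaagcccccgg
Wnt1 (chr15:98789607-98789906, plus strand): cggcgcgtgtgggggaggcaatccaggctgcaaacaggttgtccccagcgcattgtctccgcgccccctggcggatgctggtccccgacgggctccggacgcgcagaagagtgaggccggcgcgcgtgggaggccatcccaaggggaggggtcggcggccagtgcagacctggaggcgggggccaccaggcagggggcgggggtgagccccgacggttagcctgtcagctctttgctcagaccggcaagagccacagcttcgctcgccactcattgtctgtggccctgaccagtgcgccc
Wnt3 (chr11:103773925-103774224, plus strand): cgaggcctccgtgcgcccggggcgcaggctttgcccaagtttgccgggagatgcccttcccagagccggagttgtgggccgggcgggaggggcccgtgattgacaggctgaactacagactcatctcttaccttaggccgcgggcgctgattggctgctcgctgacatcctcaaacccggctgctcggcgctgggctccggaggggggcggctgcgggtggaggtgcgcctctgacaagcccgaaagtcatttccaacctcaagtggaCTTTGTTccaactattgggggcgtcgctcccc
Wnt11 (chr7:98834862-98835161, plus strand): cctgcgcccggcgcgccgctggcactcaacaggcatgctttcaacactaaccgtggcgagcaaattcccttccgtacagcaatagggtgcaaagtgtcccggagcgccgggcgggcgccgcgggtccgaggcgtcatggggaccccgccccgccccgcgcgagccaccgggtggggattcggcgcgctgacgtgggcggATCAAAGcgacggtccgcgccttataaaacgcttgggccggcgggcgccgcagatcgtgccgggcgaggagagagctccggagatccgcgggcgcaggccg
Axin2 (chr11:108920099-108920398, plus strand): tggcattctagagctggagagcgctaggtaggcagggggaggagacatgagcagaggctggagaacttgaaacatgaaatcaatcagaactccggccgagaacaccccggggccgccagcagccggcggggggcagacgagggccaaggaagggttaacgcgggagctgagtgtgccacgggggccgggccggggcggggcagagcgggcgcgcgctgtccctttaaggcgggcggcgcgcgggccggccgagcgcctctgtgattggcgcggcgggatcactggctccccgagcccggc
The match in Wnt3 began at base 19 after the start and that in Wnt11 lay 51 bases before it. The Wnt10b, Wnt1 and Axin2 windows held no match to these letters. Among members with windows, 1 of 6 that rose, 1 of 7 that fell and 3 of 22 with no call held a match.

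In Eed cKO epidermis 4 Wnt ligand genes fell and 3 rose, 50% of the 14 tested, against 25.8% of genes with a symbol. The lowered ligands were Wnt10b, Wnt3, Wnt10a and Wnt3a, and the median log2 fold change over the 14 was -0.13. Wnt10b, an early ligand of the hair placode, had log2 ratios of 1.25, 1.37, 1.17 and 1.36 on Eed cKO arrays 1 to 4 and 1.76, 2.31, 1.94 and 2.25 on control arrays 1 to 4. Every Eed cKO array lay below every control array. The log2 fold change was -0.77 ± 0.08 (SE, n = 4 and 4; limma adjusted p = 0.00053).

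Wnt10a, expressed with Wnt10b in placodes and follicle epithelium, was at 0.22, 0.28, 0.32 and 0.07 on the Eed cKO arrays and at 0.51, 0.93, 0.99 and 0.77 on the control arrays. The groups did not overlap, and Wnt10a fell by 0.58 ± 0.11 on the log2 scale (limma adjusted p = 0.0077). Wnt3, a ligand of epidermal keratinocytes, was at 3.40, 4.18, 3.42 and 3.62 on the Eed cKO arrays and at 4.05, 4.87, 4.31 and 4.35 on the control arrays. Eed cKO array 2 reached above control array 1, so the groups overlapped, but in each of the 4 replicate numbers, which also fix the dye, Wnt3 was lower in Eed cKO, by 0.65 to 0.89. Its log2 fold change was -0.74 ± 0.14 (limma adjusted p = 0.0073). The Wnt3 value was -0.25 with the Feature Extraction log ratio in place of normexp and loess (limma adjusted p = 0.53), and its reference channel was well above background on 6 of 8 arrays.

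Wnt3a, a close relative of Wnt3, was dim. Its sample channel was well above background on 2 Eed cKO and 3 control arrays and its reference channel on 0 of 8. It fell by 0.45 ± 0.09 on the log2 scale (limma adjusted p = 0.0088) in this treatment and by 2.06 with the Feature Extraction log ratio. The size of its change thus rests on the background treatment. The Feature Extraction log2 ratio was 0 on Eed cKO array 3, beside 2.29, 3.03 and 2.86 on Eed cKO arrays 1, 2 and 4. On Eed cKO array 3, 9.09% of spots had a log ratio of 0.

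The ligands that rose were Wnt11, Wnt9a and Wnt1. Wnt11, which is known for β-catenin-independent signalling, was at 0.38, 0.92, 0.63 and 0.70 on the Eed cKO arrays and at -0.17, 0.19, 0.26 and 0.06 on the control arrays. All Eed cKO arrays lay above all controls, and the log2 fold change was 0.57 ± 0.11 (limma adjusted p = 0.0086). Wnt1 rose by 0.25 ± 0.07 (limma adjusted p = 0.030) with no overlap, at 0.51 to 0.71 against 0.30 to 0.38. Wnt9a rose by 0.28 ± 0.08 (limma adjusted p = 0.042), with overlapping groups. Wnt1 passed in 12 of 24 alternative settings and Wnt9a in 9 of 23.

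Wnt4, Wnt7a and Wnt7b, further ligands made by keratinocytes, had log2 fold changes below 0 that did not pass. Wnt7b was at 2.42, 2.71, 2.63 and 2.30 on the Eed cKO arrays and at 2.56, 3.09, 2.96 and 2.87 on the control arrays, a log2 fold change of -0.35 with a 95% interval of -0.64 to -0.07 (limma adjusted p = 0.073). Wnt7a was at 0.87, 0.97, 1.02 and 0.74 against 0.94, 1.94, 1.32 and 1.29, a log2 fold change of -0.48 (-0.86 to -0.09; limma adjusted p = 0.074). Control array 2 was the highest of the 8 for both genes, and each was lower in Eed cKO at all 4 replicate numbers. The numbers are not known to pair samples and also mark dye and slide column. Within Cy3, Eed cKO array 3 lay above control array 1 for both genes. With the replicate number as a block, Wnt7b (limma adjusted p = 0.019) and Wnt7a (limma adjusted p = 0.036) passed. Wnt4 was at 2.82, 3.28, 3.02 and 3.25 on the Eed cKO arrays and at 3.12, 3.57, 3.02 and 3.48 on the control arrays, a log2 fold change of -0.20 (limma adjusted p = 0.078), and its second probe gave -0.25 (limma adjusted p = 0.040 over all probes). The remaining ligands tested were Wnt5a (-0.06), Wnt5b (0.10), Wnt6 (0.09) and Wnt16 (0.16), none of which passed. Wnt2, Wnt2b, Wnt8a, Wnt8b and Wnt9b did not pass the filter. Wnt2 and Wnt8b were well above background on 1 Eed cKO array and on no control array, too near background for a fold.

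There are 4 pairs of Wnt genes that lie within 20000 bases of each other in the GRCm38.p6 annotation, and in 2 of them the neighbours changed in opposite directions. On chromosome 15, Wnt10b (98770712 to 98778206) fell and Wnt1 (98789857 to 98793830), 11650 bases away, rose. On chromosome 11, Wnt3a (59248036 to 59290751) fell and Wnt9a (59306849 to 59333552), across a gap of 16097 bases, rose. In the other pairs Wnt10a and Wnt3 fell, while Wnt6 did not pass and Wnt9b was not tested. The opposite direction within pairs was noticed in these values and was not tested. Both pairs rest on a small rise, since Wnt1 passed in 12 of 24 alternative settings and Wnt9a in 9 of 23. Wnt3a was dim and passed the filter through the controls alone.

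**Figure D2:**
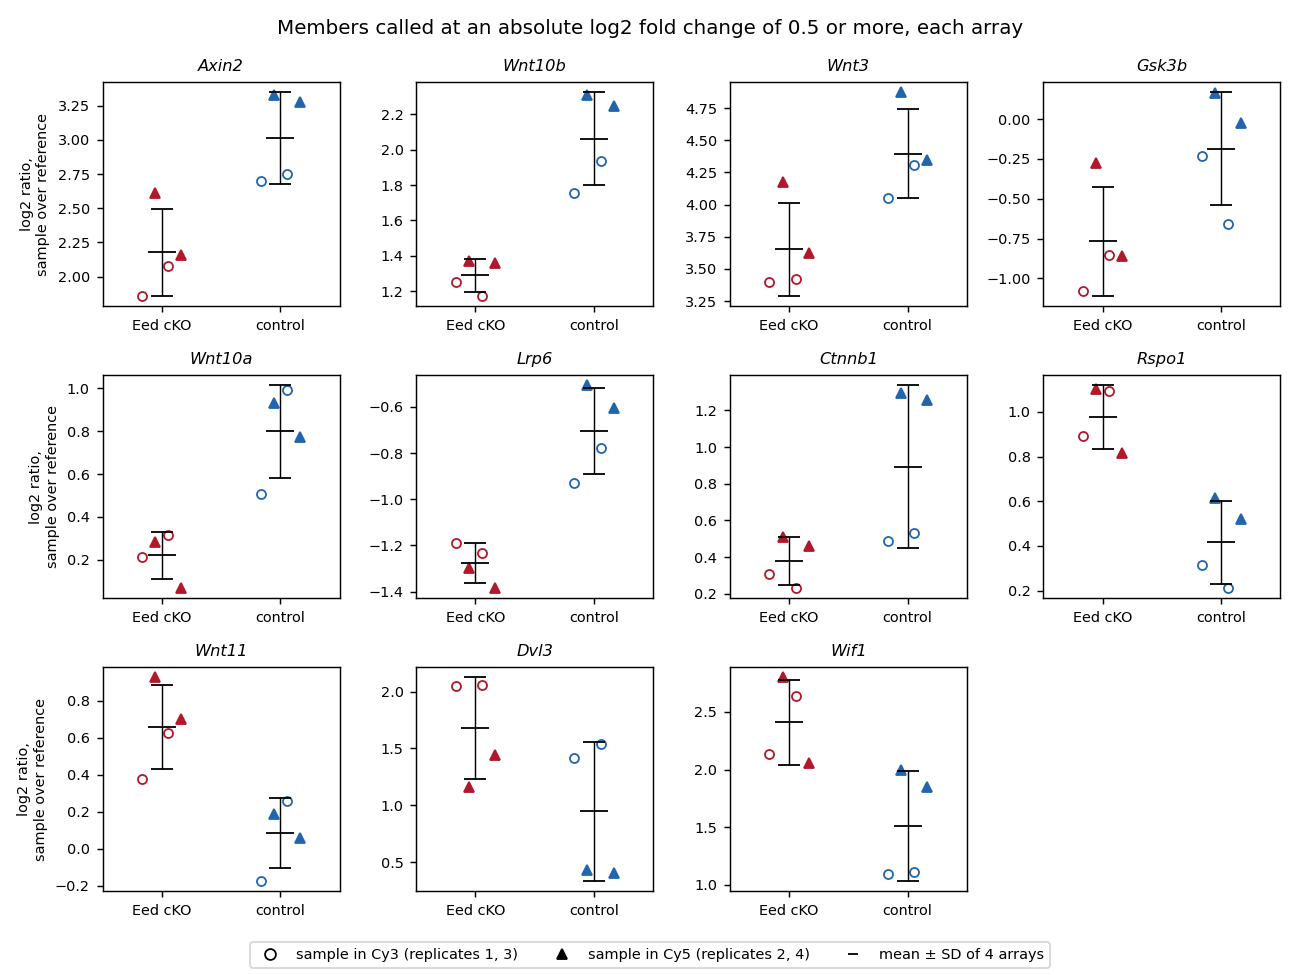
Log2 ratio of sample over reference on each array for the 11 members called with an absolute log2 fold change of 0.5 or more; open circles carried the sample in Cy3, filled triangles in Cy5, and bars are the mean and SD of 4 arrays. Groups are apart for Axin2, Wnt10b, Wnt10a, Lrp6, Rspo1, Wnt11 and Wif1, and overlap across dyes for Wnt3, Gsk3b, Ctnnb1 and Dvl3.

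Among the 15 receptors, 2 rose and 2 fell, and the median log2 fold change was 0.02. That is 26.7% called, near the 25.8% of all genes with a symbol. The coreceptors Lrp5 and Lrp6, which pair with Frizzled proteins at the membrane, changed in opposite directions. Lrp6 was at -1.19, -1.30, -1.23 and -1.39 on the Eed cKO arrays and at -0.93, -0.51, -0.78 and -0.61 on the control arrays. The groups did not overlap and the log2 fold change was -0.57 ± 0.10 (limma adjusted p = 0.0041). A second, dimmer Lrp6 probe gave 0.00 (limma adjusted p = 0.99), so the fall rests on 1 of 2 probes. Lrp5 rose by 0.24 ± 0.07 (limma adjusted p = 0.036), at 0.24 to 0.43 against -0.06 to 0.20, and passed in 11 of 24 alternatives.

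Fzd3, a Frizzled receptor also known for planar cell polarity in hair orientation, rose by 0.43 ± 0.10 (limma adjusted p = 0.013), at 2.92 to 3.19 against 2.35 to 2.76. Lgr4, a receptor for R-spondins that raises Wnt sensitivity, fell by 0.37 ± 0.10 (limma adjusted p = 0.031), at 0.84 to 1.25 against 1.31 to 1.67. For both genes the groups did not overlap. Lgr5 and Lgr6, the R-spondin receptors that mark follicle stem cells, had log2 fold changes of 0.17 (95% interval -0.15 to 0.49) and 0.00 (-0.22 to 0.22) and did not pass. The Lgr5 reference channel was well above background on 0 of 8 arrays.

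The log2 ratio of Fzd10, a Frizzled receptor, was 4.37, 4.86, 4.63 and 4.83 on the Eed cKO arrays and 4.49, 4.80, 4.52 and 4.80 on the control arrays. The groups overlapped throughout, with a log2 fold change of 0.02 (-0.15 to 0.19; limma adjusted p = 0.88). Each channel alone gave another picture. In the sample channel Fzd10 was at 11.64, 11.60, 11.41 and 11.26 log2 signal units on the Eed cKO arrays and at 12.45, 12.71, 12.39 and 12.47 on the control arrays. In the reference channel, which held the same reference RNA on every array, it was at 7.27, 6.74, 6.78 and 6.42 against 7.97, 7.91, 7.87 and 7.67. The reference signal was thus also lower on every Eed cKO array, by 1.05 (limma adjusted p = 0.0031), and the 2 differences cancelled in the ratio. Fzd10 was at 0.56 with the Feature Extraction log ratio (limma adjusted p = 0.048). Wnt4 was the other member whose reference channel differed, by -0.54 (limma adjusted p = 0.040), beside -0.74 in the sample channel. Of all 23139 genes and targets, 117 differed in the reference channel. The part of slide row in these differences was not tested. The other 8 Frizzled genes did not pass; Fzd8 was at -0.20 with all Eed cKO arrays below the controls, and the rest lay between -0.08 and 0.12.

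**Figure D3:**
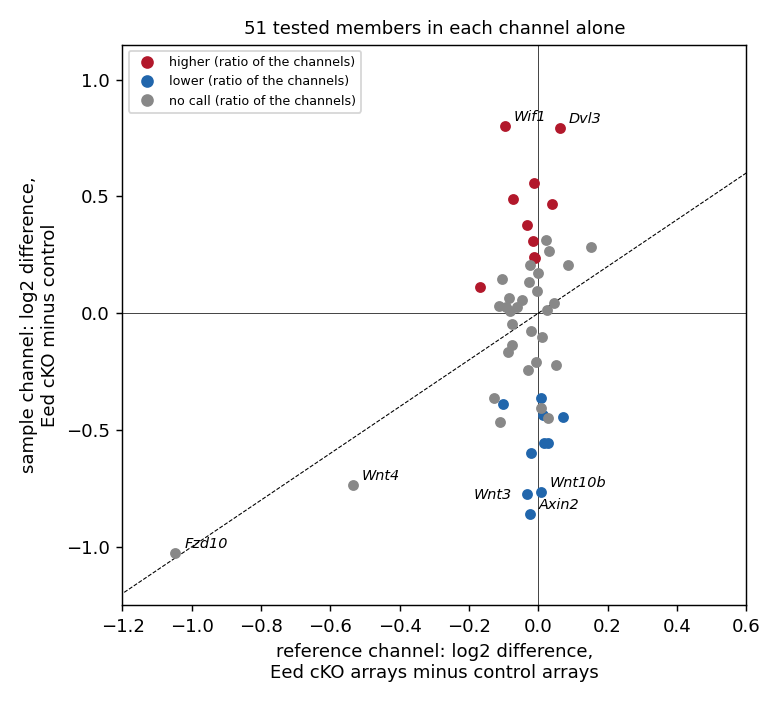
Difference between Eed cKO and control arrays in the reference channel (horizontal) and in the sample channel (vertical), both in log2 units, for the 51 members tested; the dashed line marks equal differences in both channels. Most members lie near 0 on the horizontal axis, while Fzd10 and Wnt4 lie near the dashed line.

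Among the genes that feed Wnt reception, Rspo1 and Porcn rose and Rspo3 did not pass (0.15). Rspo1, a secreted ligand of the Lgr receptors, was at 0.893, 1.105, 1.093 and 0.818 on the Eed cKO arrays and at 0.32, 0.62, 0.21 and 0.52 on the control arrays. The groups did not overlap, and the log2 fold change was 0.56 ± 0.10 (limma adjusted p = 0.0055). Its reference channel was well above background on 0 of 8 arrays, and the Feature Extraction log ratio gave 1.54, a 2.91-fold rise. Porcn, the X-linked enzyme that lipidates Wnt proteins for secretion, rose by 0.32 ± 0.10 (limma adjusted p = 0.043) and passed in 12 of 24 alternatives. Each control was lower than the Eed cKO array of the same replicate number. The groups overlapped, also within Cy3, where Eed cKO array 1 lay below control array 3.

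Of the 10 secreted inhibitors, 6 were tested and 2 of them (33.3%) rose, against 25.8% of genes with a symbol called in either direction. Wif1, which binds Wnt ligands outside the cell, had the largest rise of the members. It was at 2.14, 2.80, 2.64 and 2.06 on the Eed cKO arrays and at 1.09, 2.00, 1.11 and 1.85 on the control arrays. The lowest Eed cKO array was just above the highest control array, and the log2 fold change was 0.90 ± 0.20 (limma adjusted p = 0.013). Within the arrays labelled in Cy3 the difference was 1.29 and within those in Cy5 it was 0.51. Sfrp1, a secreted Frizzled-related decoy, rose by 0.41 ± 0.08 (limma adjusted p = 0.0094), at 0.44 to 0.81 against 0.13 to 0.40. For Wif1 and Sfrp1 the reference channel was well above background on 4 and 3 of 8 arrays, and the Feature Extraction log ratio gave 1.18 (limma adjusted p = 0.066) and 1.59 (limma adjusted p = 0.087).

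Dkk3 (0.25), Sfrp2 (0.23), Dkkl1 (0.13) and Sfrp5 (0.29), the last well above background on 4 Eed cKO and 2 control arrays, did not pass, although Sfrp2 passed with the replicate number as a block (limma adjusted p = 0.042). Dkkl1, a Dickkopf relative, was at 2.76, 3.15, 2.63 and 2.86 on the Eed cKO arrays and at 2.62, 2.73, 3.27 and 2.24 on the control arrays. The controls spanned the whole Eed cKO range, and the 95% interval was -0.31 to 0.58. Dkk1, Dkk2, Sfrp4 and Frzb did not pass the filter. Dkk1, Dkk2 and Frzb were well above background on no array and Sfrp4 on 1 control array.

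Of the 10 intracellular parts, 1 rose and 3 fell (40%, against 25.8% of genes with a symbol), with a median of -0.16. Ctnnb1, which encodes β-catenin, was at 0.31, 0.51, 0.23 and 0.46 on the Eed cKO arrays and at 0.49, 1.30, 0.53 and 1.26 on the control arrays. Control values were higher on the Cy5 arrays than on the Cy3 arrays, so the groups overlapped across dyes. Within Cy3 the difference was -0.24 and within Cy5 -0.79, and the log2 fold change was -0.52 ± 0.11 (limma adjusted p = 0.011).

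Gsk3b, the kinase that marks β-catenin for degradation, was at -1.08, -0.28, -0.85 and -0.86 on the Eed cKO arrays and at -0.23, 0.17, -0.66 and -0.02 on the control arrays. The groups overlapped, and Gsk3b was lower in Eed cKO at all 4 replicate numbers, with a log2 fold change of -0.58 ± 0.14 (limma adjusted p = 0.018). Its other probes fell too, by 0.51 and 0.37. Axin1, the scaffold of the degradation complex, fell by 0.29 ± 0.07 (limma adjusted p = 0.023) without overlap, with the highest Eed cKO array at 0.575 and the lowest control at 0.584. Apc, the complex's tumour suppressor, did not pass (0.14).

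Dvl3, a Dishevelled protein that relays the signal from Frizzled, was at 2.05, 1.16, 2.06 and 1.44 on the Eed cKO arrays and at 1.42, 0.44, 1.54 and 0.41 on the control arrays. Arrays with the sample in Cy3 were the high ones in both genotypes, so the groups overlapped, and within each replicate number Dvl3 was higher in Eed cKO by 0.52 to 1.04. The log2 fold change was 0.73 ± 0.09 (limma adjusted p = 0.0012). Dvl1 (0.23) and Dvl2 (-0.21) did not pass.

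The Tcf factors did not pass on the probes used. Tcf7l1, a repressor of the pathway in follicle stem cells, was at -0.10, -0.01, 0.03 and -0.24 on the Eed cKO arrays and at -0.10, 0.40, 0.28 and 0.19 on the control arrays. Its log2 fold change was -0.27 (95% interval -0.52 to -0.02; limma adjusted p = 0.11), and the groups overlapped through control array 1. Tcf7l2 was at 0.03, 0.16, 0.44 and 0.17 against 0.16, -0.08, 0.15 and 0.08, a log2 fold change of 0.12 (-0.09 to 0.33; limma adjusted p = 0.40). Its other probes gave -0.05 and -0.35, the last with a limma adjusted p of 0.018, so no single direction holds for Tcf7l2. Tcf7 was at -0.11 and did not pass.

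Axin2, Nkd1 and Nkd2, negative feedback genes induced by β-catenin signalling, all had log2 fold changes below 0 on the probes used, and Axin2 fell. A second Nkd2 probe gave 0.01 (limma adjusted p = 0.90 over all probes). Axin2, the most used readout of the pathway, was at 1.86, 2.61, 2.08 and 2.16 on the Eed cKO arrays and at 2.70, 3.32, 2.75 and 3.28 on the control arrays. No Eed cKO array reached the controls. The log2 fold change was -0.84 ± 0.11 (limma adjusted p = 0.0012), the largest fall of the members tested, and a second, dimmer Axin2 probe gave -0.21 (limma adjusted p = 0.14 over all probes). Nkd1 (-0.41; limma adjusted p = 0.090) and Nkd2 (-0.24; limma adjusted p = 0.36) did not pass.

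Of 48 other genes of the Wnt pathway, likewise listed by role, 44 were tested, 19 fell and 4 rose, with a median log2 fold change of -0.22. That is 52.3% of those tested, against 21.7% of all genes and targets and 25.8% of genes with a symbol. This list too was drawn up with earlier results of these data known, so its share is not an independent test. Called genes are named from an absolute log2 fold change of 0.5 on. The targets Sp5 (-0.72), Lef1 (-0.76), Dkk4 (-0.67), Rnf43 (-0.55) and Tnfrsf19 (-0.79) and the inhibitory membrane proteins Lrp4 (-0.94) and Kremen2 (-0.81) fell. The β-catenin coactivators Bcl9 (-0.71) and Pygo2 (-0.59), the corepressor Tle3 (-0.79) and Amer1 (-0.58), an Apc-binding regulator, were lowered as well. Celsr1, a planar cell polarity cadherin that orients follicles, had the largest fall of the list, 2.01-fold, at 2.10 to 2.54 against 2.81 to 3.72. The targets Ccnd1 (0.29; limma adjusted p = 0.48), Wisp1 (0.18), Wisp2 (0.26) and Znrf3 (-0.19) did not pass. Among the called genes under 0.5, Myc (-0.47, limma adjusted p = 0.0091) and Apcdd1 (-0.34, limma adjusted p = 0.035) fell. The genes that rose were Ror2 (0.75) and Ptk7 (0.66), both receptors of β-catenin-independent signalling, Ctnnbip1 (0.59), an inhibitor of β-catenin binding to Tcf, and Notum (0.57), a target whose product removes the lipid of Wnt proteins. Ror2 was well above background on 4 Eed cKO and 2 control arrays. Lef1 was at 0.12 to 0.42 on the Eed cKO arrays and at 0.60 to 1.40 on the control arrays, and like Sp5 it did not overlap.

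**Figure D4:**
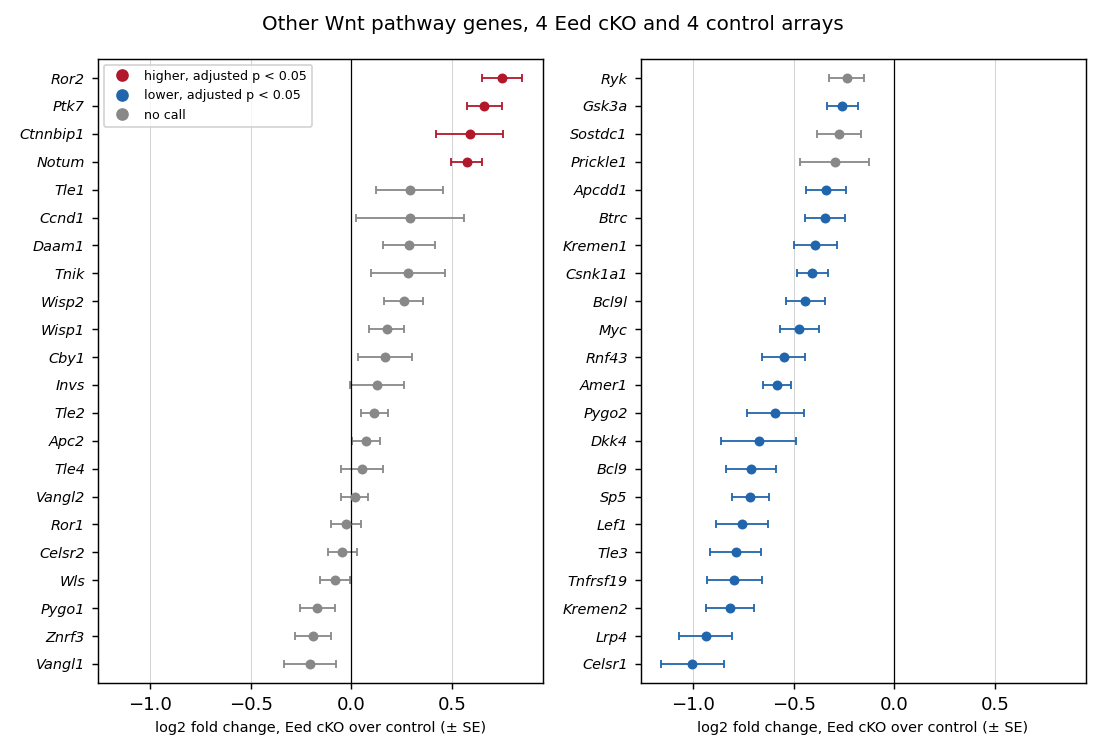
Log2 fold change of Eed cKO over control with its standard error for the 44 other Wnt pathway genes tested, sorted from highest to lowest; red and blue points passed an adjusted p of 0.05. The 19 that fell reach from Gsk3a (-0.26) to Celsr1, and 4 rose.

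Markers of other cell types that such a suspension could hold were read on the same arrays, and their part in the results was not tested. Of 8 hair follicle epithelium markers tested, Shh (-0.79) and Edar (-0.50) fell, Sox9 (0.52) rose and 5 did not pass, and the mean log2 ratio of the list was 1.47 to 1.75 on the Eed cKO arrays and 1.38 to 1.89 on the control arrays. The mean of 6 Merkel cell markers was -0.95 to -0.82 against -1.67 to -1.53. Among them Krt20 (1.12), Krt8 (0.65) and Krt18 (0.47), well above background on all 8 arrays, rose, while Atoh1 (0.88), Isl1 (0.83) and Sox2 (0.41), also called higher, passed the filter through the Eed cKO arrays alone. Of 7 dermal fibroblast markers, Postn (-0.98) fell, Lum (0.50) rose and the collagens did not pass, with a mean of -2.04 to -1.97 against -2.14 to -1.79. Of 5 markers of the dermal condensate or papilla tested, Bmp4 (0.58) and Crabp1 (0.35) rose, Cxcr4 (-0.49) fell and 2 did not pass, with a mean of -1.41 to -1.31 against -1.58 to -1.42. Of 3 immune markers tested, Cd3e (0.54) and Cd74 (0.46) rose and Ptprc did not pass, and none of 5 melanocyte markers passed. The endothelial genes Pecam1 (0.89) and Kdr (0.62) rose, while Cdh5 and Tek, also on that list, were well above background on no array.

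The size of change of some members depended on the background treatment. In the values extracted by the scanner software, Rspo1, Wnt11 (1.14) and Wnt3a (-2.06) passed an adjusted p of 0.05 at 2-fold or more (limma). The Wnt3a value includes a log2 ratio of 0 on Eed cKO array 3. Sfrp1, Sfrp5, Lgr5 and Fzd8 also lay farther from 0 than after normexp. Axin2 at -0.85, Wnt10b at -0.88 and Dvl3 at 0.76, each well above background in both channels on all 8 arrays, lay close to their values after normexp. Wnt11 and Fzd10 were as far above background in both channels, yet they moved from 0.57 to 1.14 and from 0.02 to 0.56.

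**Figure D5:**
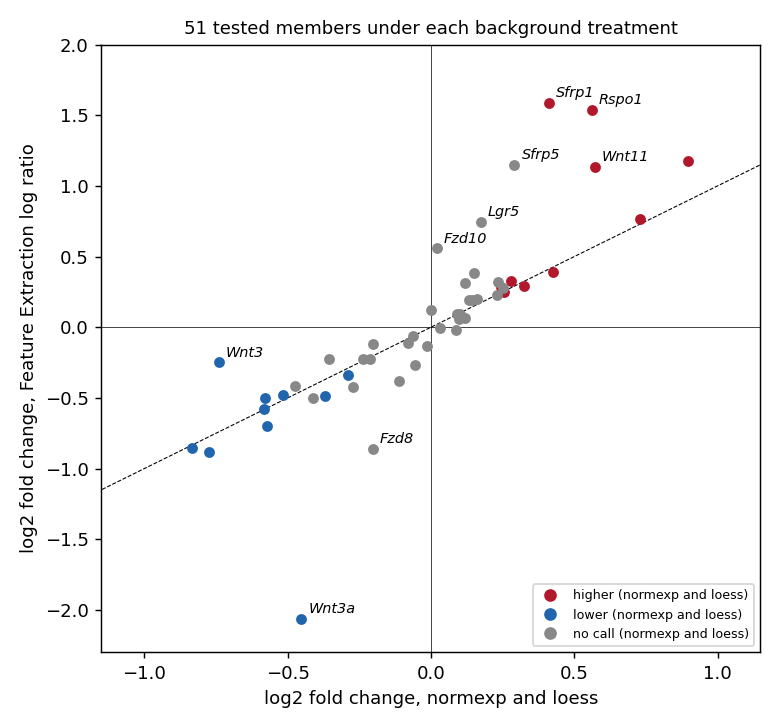
Log2 fold change of Eed cKO over control for the 51 members after normexp and loess (horizontal) and from the Feature Extraction log ratio (vertical), with the line of equality dashed and colours giving the call of the horizontal axis. Labelled genes differ by more than 0.45, among them Wnt3, which lies nearer 0 on the vertical axis, and Wnt3a, which lies at -2.06. That Wnt3a value includes a log2 ratio of 0 on Eed cKO array 3.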

How the data were processed

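RNA of 4 Eed cKO and 4 control samples was read on 2-colour Agilent arrays; replicates 1 and 3 carried the sample in Cy3 and replicates 2 and 4 in Cy5. The authors scanned and extracted the arrays with Agilent Feature Extraction 12.0.1.1, and the deposited files hold spot and background intensity per channel and the log10 of Cy5 divided by Cy3. The deposited series table holds log2 ratios of sample over reference, uncentred, which equalled the Feature Extraction ratio for most single-spot probes.

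Median spot intensities were corrected by normexp (offset 50), normalised by loess within arrays and turned to sample over reference. The offset draws ratios of dim probes toward 0. Probes were named through RefSeq accessions (28026 of 29796 matched), the brightest probe stood for a gene, and genes well above background on 3 or 4 of the 4 arrays of either genotype were tested with limma 3.58.1 in R 4.3.3 (genotype plus dye, Benjamini-Hochberg over 23139). The code was tested on simulated data. The number of arrays limits the precision. The members and lists were chosen with earlier results of these data known. Values on every array are given for members called at an absolute log2 fold change of 0.5 or more and for members the study assayed by PCR primers. Probe coordinates were not used, since the array design was annotated on another build.

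Same-numbered samples deviated together from their group means (correlations 0.49, 0.68, 0.33 and 0.36 across genes), but the number also marks dye and slide column, and after removal of the dye the correlations were -0.14, 0.23, -0.13 and 0.05. Alternatives changed the background correction, the values, normalisation, filter, probe choice and dye term. Others changed the replicate block, array weights, variance trend, Y-linked covariate, channel, test and the arrays included.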

Additional observations from a re-analysis of the deposited data

How the results depend on the processing

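Wnt10b and Lrp6 passed in the same direction under all 24 alternatives, and Wnt10a, Wnt11 and Axin2 under 23. In these tallies and those above, Aquantile after loess left the log2 ratios unchanged and could alter no call. The setting with every probe on its own read the same brightest probe of each member. The second probes of Lrp6 (0.00, limma adjusted p = 0.99) and Axin2 (-0.21, limma adjusted p = 0.14) did not pass. They entered only through the median of the probes of a gene. Against 10 members higher and 10 lower, the higher count was 4 with the Feature Extraction log ratio, with the deposited table and with median centring, 5 without the dye term, 6 with the Y-linked covariate and 1 by the methods' t-test after Benjamini-Hochberg adjustment, and the lower count was 5 without the dye term and 2 by that t-test. Without adjustment the methods' t-test gave 10 higher and 7 lower. The 2-fold count rose from 0 to 3 with the Feature Extraction ratio and the deposited table and to 1 without background correction and in the sample channel alone. Leaving out 1 array gave 6 to 9 higher, 7 to 14 lower and 0 to 1 at 2-fold; without control replicate 2, 6 were higher and 7 lower, with Porcn, Wnt9a, Gsk3b, Lrp5, Axin1, Wnt1 and Lgr4 lost, and without Eed cKO replicate 3 or control replicate 4, 6 were higher.

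Over all genes 2727 were higher, with 1014 under median centring, 1341 without the dye term, 1753 with the Y-linked covariate, 593 by the t-test and 1586 to 2574 with 1 array left out. Lower were 2297, with 1017, 1051 and 320 for the last 3 settings and 1136 to 2490 with 1 array left out. At 2-fold 278 passed, 699 with the Feature Extraction ratio, 698 with the deposited table, 175 by the t-test and 255 to 317 with 1 array left out. These t-test counts are after Benjamini-Hochberg adjustment; unadjusted, it gave 3090 higher, 2514 lower and 275 at 2-fold. The share of calls that were higher was 54.3%, and 39.7% under median centring, 65% by the t-test and 62.5% with the Y-linked covariate. Under that covariate Wnt1, Wnt9a, Fzd3, Lrp5, Sfrp1, Lgr4 and Axin1 lost their calls, and under median centring Wnt1, Wnt9a, Fzd3, Lrp5, Porcn, Sfrp1, Lgr4 and Ctnnb1 did. Fzd10 turned to -1.03 in the sample channel alone and Tcf7l2 to -0.22 with the median of its probes. The cause of these shifts was not tested.

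With the replicate block, 11 members were higher and 12 lower; the 20 calls were kept and Wnt7a, Wnt7b and Sfrp2 were added. The block changed no other call of a member. Signal over background limits Wnt3a, Rspo1, Lgr5, Wif1 and Sfrp1, whose reference channel was well above background on 4 arrays or fewer.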
